A study of Mus musculus with 16 samples.

Results

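Genes for mitochondrial ribosomal proteins were compared between brown adipose tissue (BAT, intrascapular region) and subcutaneous white adipose tissue (sWAT) of LACA mice. The genes were those whose platform symbol is Mrpl or Mrps followed by a number, with a letter allowed after it, on probe sets that name a single gene. They came to 156 of the 45101 probe sets and 76 of the 18194 genes measured, with 47 Mrpl genes (large subunit) and 29 Mrps genes (small subunit). Probe sets naming Mrpl30 or Mrpl53 also name another gene and were left out. BAT and sWAT had 4 replicates each and 2 Affymetrix arrays per replicate, the second of them labelled technical, which makes 16 arrays. All mice are labelled as untreated males of the LACA strain on standard chow, within a stated range of body weight and with no age given. The methods name 4 mice and a paired test of their tissues.

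Mitochondria keep a small genome that encodes core subunits of the respiratory chain and of ATP synthase, and these are made on ribosomes inside the organelle. The ribosomal RNAs come from that genome, whereas the proteins of the mitochondrial ribosome are encoded in the nucleus, made in the cytosol and imported. Some descend from bacterial ribosomal proteins and others occur only in mitochondria. The small subunit decodes the mRNA, and the large subunit joins the amino acids and releases the new chain toward the inner membrane. Brown adipocytes are rich in mitochondria, in which Ucp1 uncouples respiration to give heat, and white adipocytes hold far fewer.

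The deposited numbers are on a log2 scale and centred, so that every probe set has a median of 0 across the arrays. They give differences between samples and not the level of a gene, and genes can be ordered by their difference but not by abundance. The value of a gene is the mean of its probe sets. BAT minus sWAT was fitted with limma, blocking on replicate number, and a gene was called at an adjusted p under 0.05 (Benjamini-Hochberg over all 18194 genes). Values written with ± are the fitted difference and its standard error at n = 4 replicates per tissue. In tissue samples, fewer cells of a type and less RNA per cell cannot be told apart.

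Several samples stood apart from the rest. On the second array of BAT replicate 1 and the first array of sWAT replicate 3, the signal at the 5' end of the control transcripts Gapdh and Actb, minus that at the 3' end, was -3.56 and -4.79, against -1.23 to 0.46 on the other arrays. Second arrays alone thus hold the low array of BAT but not that of sWAT, and first arrays alone the reverse. The part of this in fits on second or first arrays alone was not tested. Although all mice are labelled male, Xist, the RNA that silences an X chromosome in female cells, had 5.74, 6.26, 6.36 and -0.26 in BAT, against -0.27 to -0.11 in sWAT. Eif2s3y, Uty and Kdm5d, which lie on the Y chromosome, were called lower in BAT, with -2.94, -3.16, -3.21 and 0.40 in BAT, against -0.05 to 0.26 in sWAT for Eif2s3y, and in all 3 the low values were those of BAT replicates 1 to 3. These BAT replicates thus went against their label and differed in sex-linked genes from the sWAT replicates of the same number, so that for replicates 1 to 3 tissue and sex cannot be told apart. The brown adipocyte markers, such as Ucp1 and Cidea, were higher in BAT for 8 of 8 genes, with means of 3.01, 3.21, 2.97 and 1.35 in BAT, against -1.51, -1.30, -2.15 and -1.93 in sWAT. Skeletal muscle genes were higher in BAT for 10 of 10 (means of 2.09, 3.17, 2.18 and 3.95 in BAT, against -1.89, -1.45, -1.77 and -1.80 in sWAT). Markers of B cells, T cells and dividing cells were lower in BAT for 7 of 7, 7 of 7 and 7 of 7 genes, with means of -2.13 to -1.41 in BAT, against 1.68 to 2.37 in sWAT, of -2.20 to -1.27 in BAT, against 1.67 to 2.45 in sWAT, and of -1.87 to -0.57 in BAT, against 0.83 to 1.64 in sWAT. Fibroblast markers were lower for 5 of 6 genes (means of -1.80, -1.13, -1.10 and 0.59 in BAT, against -0.03, 1.14, 0.09 and 0.22 in sWAT), and of 6 macrophage markers 1 was higher and 3 were lower (means of -1.34, -0.38, -0.12 and 0.32 in BAT, against -0.03, 0.22, -0.42 and 0.57 in sWAT). Of 4 mature adipocyte markers 2 were higher and 0 lower (means of 0.08 to 0.55 in BAT, against -0.54 to -0.11 in sWAT). Of 5 endothelial markers 1 was higher and 0 lower (means of -0.41 to 0.33 in BAT, against -0.81 to 0.20 in sWAT). Over all genes 21.0% were called higher and 17.5% lower. The part of these cells in the results below was not tested.

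The promoters of 6 genes from both ends of the range are shown. Mrpl55 and Mrpl39 were among the Mrpl genes with the highest difference and Mrps36 and Mrps27 among the Mrps genes with the highest, while Mrpl52 and Mrps21 had the lowest difference of their subunit. Sequences run 5' to 3' from 250 bases before to 50 bases after the annotated start and are taken from RefSeq (GRCm38.p6). They lie at chr11:59202236-59202535 on the plus strand for Mrpl55, chr16:84735195-84735494 on the minus strand for Mrpl39, chr14:54426659-54426958 on the plus strand for Mrpl52, chr13:100744610-100744909 on the minus strand for Mrps36, chr13:99344536-99344835 on the plus strand for Mrps27 and chr3:95871465-95871764 on the minus strand for Mrps21. Capitals mark matches, on either strand, to motifs of 4 factors or families known for genes of mitochondrial proteins: NRF1 (GCGCA, any base, then GCGC), the ETS family that includes GABP (CCGGAAGT), YY1 (AAGATGGC) and the estrogen-related receptors (AAGGTCA).
Mrpl55: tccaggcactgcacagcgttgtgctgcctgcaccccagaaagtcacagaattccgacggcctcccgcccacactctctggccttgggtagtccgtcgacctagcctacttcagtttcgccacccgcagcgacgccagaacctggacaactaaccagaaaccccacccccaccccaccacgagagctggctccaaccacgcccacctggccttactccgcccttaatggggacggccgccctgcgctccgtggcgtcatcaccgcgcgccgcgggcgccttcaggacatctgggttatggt
Mrpl39: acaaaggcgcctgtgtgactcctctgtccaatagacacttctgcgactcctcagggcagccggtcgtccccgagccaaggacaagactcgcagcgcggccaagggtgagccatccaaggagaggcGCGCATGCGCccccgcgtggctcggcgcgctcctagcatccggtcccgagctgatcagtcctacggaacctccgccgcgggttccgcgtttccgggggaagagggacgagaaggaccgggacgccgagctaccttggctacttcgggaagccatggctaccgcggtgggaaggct
Mrpl52: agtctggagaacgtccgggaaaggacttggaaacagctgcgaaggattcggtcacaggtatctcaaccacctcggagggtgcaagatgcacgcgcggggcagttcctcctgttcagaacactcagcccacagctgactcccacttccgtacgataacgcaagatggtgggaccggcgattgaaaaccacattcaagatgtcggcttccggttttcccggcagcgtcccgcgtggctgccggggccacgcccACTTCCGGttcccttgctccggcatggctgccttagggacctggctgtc
Mrps36: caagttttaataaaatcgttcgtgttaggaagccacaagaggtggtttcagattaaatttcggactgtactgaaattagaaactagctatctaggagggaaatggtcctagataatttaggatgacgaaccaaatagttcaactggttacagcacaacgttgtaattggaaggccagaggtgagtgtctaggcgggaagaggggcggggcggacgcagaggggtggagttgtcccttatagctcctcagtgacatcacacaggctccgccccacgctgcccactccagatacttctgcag
Mrps27: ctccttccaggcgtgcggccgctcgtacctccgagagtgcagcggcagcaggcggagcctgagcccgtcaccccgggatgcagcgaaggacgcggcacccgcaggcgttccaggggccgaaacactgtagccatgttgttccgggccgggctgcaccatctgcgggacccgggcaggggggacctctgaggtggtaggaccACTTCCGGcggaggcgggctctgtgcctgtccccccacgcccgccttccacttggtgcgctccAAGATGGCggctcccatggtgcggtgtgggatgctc
Mrps21: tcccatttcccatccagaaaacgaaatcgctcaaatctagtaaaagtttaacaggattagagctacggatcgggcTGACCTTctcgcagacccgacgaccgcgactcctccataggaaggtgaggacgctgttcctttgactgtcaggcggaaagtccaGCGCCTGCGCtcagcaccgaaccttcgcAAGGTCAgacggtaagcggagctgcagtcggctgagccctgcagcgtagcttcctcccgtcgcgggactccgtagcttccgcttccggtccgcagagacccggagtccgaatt
Mrpl39 held the NRF1 motif, Mrpl52 the ETS motif, Mrps27 the ETS and YY1 motifs, and Mrps21 the NRF1 motif and 2 matches to the receptor motif, none of which overlapped. In the windows of Mrpl55 and Mrps36, the Mrpl and the Mrps gene with the highest difference, none of the 4 motifs was found. The protein of Mrps36 is not part of the small subunit, as described below. The genes shown are examples and not the top genes in order. Mrpl34 ranks above Mrpl39, and Mrps2, Mrps35 and Mrps28 rank above Mrps27. No match was recorded for these genes, which are not shown.

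RefSeq promoters were at hand for 67 of the 76 genes, 73 promoters in all. The NRF1, ETS and YY1 motifs were found in 16.4%, 16.4% and 16.4% of them, against 4.60%, 3.89% and 2.75% of the 32851 promoters of the whole table. The receptor motif was found in 5.48%, against 4.72% of all promoters. At least 1 of the 4 was present in 46.6% of the promoters of these genes and in 14.8% of all promoters. The 34 genes with a match had a median log2 difference of 0.88, and the others with a promoter 1.03. A match describes the sequence and not binding.

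Genes of mitochondrial ribosomal proteins were mostly higher in BAT, by about 2-fold in the median. Of the 76 genes, 63 (82.9%) were called higher by limma and 0 lower, against 21.0% of all genes called higher and 17.5% called lower. All 76 fitted differences were above 0, against 11404 of all 18194 genes. Thus 0 of the 76 were lower at an unadjusted p under 0.05 either. With the paired test of the methods 41 were called higher (23 Mrpl and 18 Mrps genes), against 10.1% of all genes. The median was 0.97 on the log2 scale, against 0.15 over all genes. Called and at least 2-fold higher were 36 of the 76, against 7.13% of all genes. In 64 of the 76 genes every BAT replicate lay above every sWAT replicate, against 28.0% of all genes. The 13 genes that missed the threshold were Mrpl19, Mrpl24, Mrpl33, Mrpl40, Mrpl52, Mrpl54, Mrps11, Mrps14, Mrps15, Mrps18a, Mrps21, Mrps6 and Mrps7.

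**Figure D1:**
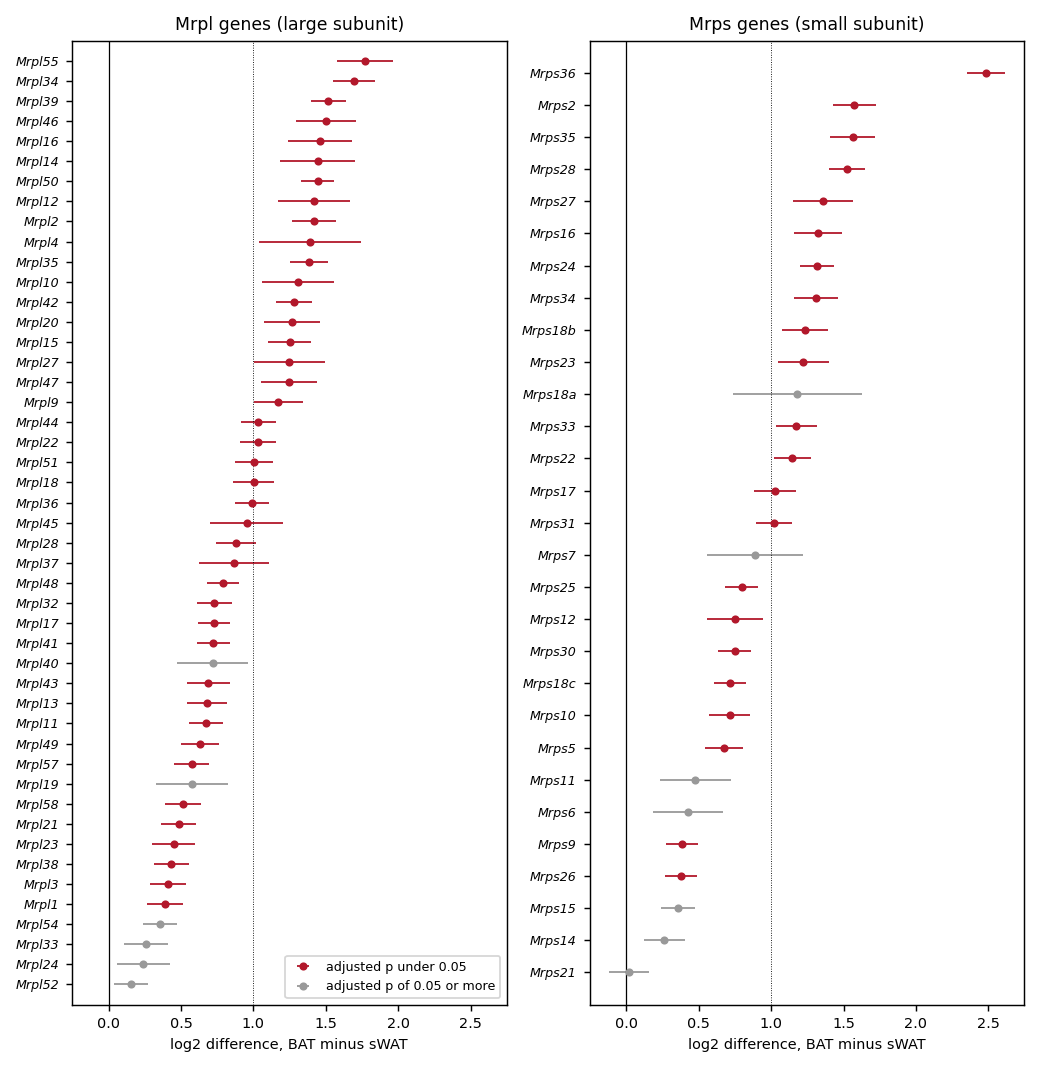
Log2 difference, BAT minus sWAT, of the 47 Mrpl genes (left) and 29 Mrps genes (right), one gene per row in order of its difference. Points are fitted differences, bars are standard errors (n = 4 replicates per tissue), and the dotted line marks a 2-fold difference. All points lie right of 0, from 0.02 for Mrps21 to 2.48 for Mrps36.

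Both subunits had a similar middle value. Of the 47 Mrpl genes, 41 were called higher in BAT. Their median log2 difference was 0.95, with quartiles of 0.60 and 1.29, and 22 were called and reached 2-fold. Among the 29 Mrps genes, 22 were called higher, with a median of 1.02 and quartiles of 0.67 and 1.31, and 14 were called and reached 2-fold. The symbols do not always give the place of a protein, since Mrps18a and Mrps30 lie in the large subunit of the mammalian ribosome and Mrps36 belongs to the 2-oxoglutarate dehydrogenase complex. With these genes placed accordingly and Mrps36 left out, 42 genes of the large and 20 of the small subunit were called higher, and the medians were 0.95 and 0.95.

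The size of the difference varied with the replicate. Averaged over the Mrpl genes, replicates 1 to 4 had 0.46, 0.67, 0.66 and 0.46 in BAT, against -0.31, -0.31, -0.57 and -0.33 in sWAT. For the Mrps genes the means were 0.42, 0.70, 0.71 and 0.50 in BAT, against -0.30, -0.28, -0.59 and -0.36 in sWAT. The tissues did not overlap in either mean. BAT replicate 1 was low through its second array, the one of low 5' signal, since its arrays gave 0.81 and 0.11 for the Mrpl genes. BAT replicate 4 had 0.46 and 0.45 on its arrays, below every other BAT array except that one, and so it was for the Mrps genes with 0.52 and 0.49. This replicate had the lowest brown adipocyte markers and the highest muscle, fibroblast and macrophage markers in BAT and no high Xist, and the part of these in its values was not tested.

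**Figure D2:**
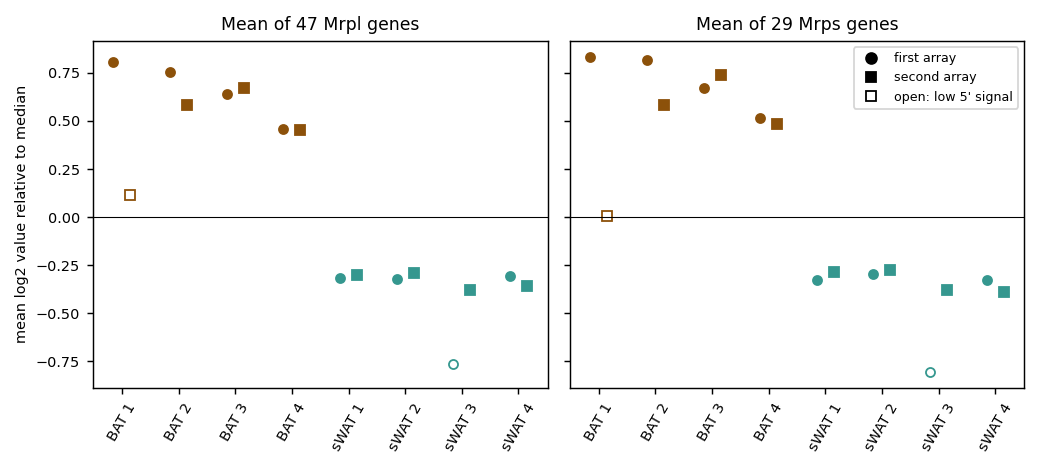
Mean log2 value, set against the median of the 16 arrays, of the Mrpl genes (left) and Mrps genes (right) on each array. Circles are first arrays, squares second arrays, and open symbols the arrays of low 5' signal (BAT replicate 1, second array, and sWAT replicate 3, first array). All BAT arrays lie above all sWAT arrays in both panels.

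Within single replicate numbers the direction was mostly shared. BAT was above sWAT for 68, 75, 74 and 75 of the 76 genes in replicates 1 to 4, against 61.0%, 59.5%, 53.0% and 63.0% of all genes. In replicate 4, where neither tissue had high Xist, the median difference was 0.76 for the Mrpl genes and 0.91 for the Mrps genes, values without a test. Without replicate 4, 56 of the 76 were called higher, against 15.4% of all genes in that fit. Without the arrays of low 5' signal 71 were called higher, against 28.7% of all genes in that fit, and the 63 called with all arrays were among them.

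Among the large subunit genes, Mrpl55, measured by 1 probe set, had the highest difference. This protein of bacterial descent had 1.10, 0.99, 1.16 and 0.50 in BAT, against -0.83, -0.53, -1.21 and -0.77 in sWAT. It was 3.41-fold higher in BAT (1.77 ± 0.19, adjusted p = 5.6e-04 from limma), without overlap, and BAT replicate 4 was the lowest of its tissue. Mrpl34, a homologue of a bacterial protein of the large subunit, had 0.93, 1.39, 1.28 and 1.03 in BAT, against -0.54, -0.28, -0.83 and -0.49 in sWAT, and its log2 difference was 1.69 ± 0.15. The tissues were apart for Mrpl34, and its probe sets gave 2.23 and 1.16. Mrpl39, which has no bacterial counterpart, had 0.87, 0.65, 0.68 and 0.53 in BAT, against -0.80, -0.996, -0.66 and -0.89 in sWAT. Its difference was 1.52 ± 0.12, and its probe sets lay close to each other at 1.56 and 1.47. Mrpl46, Mrpl16 and Mrpl14 followed at 1.503 ± 0.21, 1.46 ± 0.22 and 1.45 ± 0.26, all called by limma. The paired test of the methods called none of these 3 (adjusted p = 0.054, 0.064 and 0.087), and on second arrays alone Mrpl14 was at 0.74 and not called. Mrpl16 and Mrpl14 have bacterial homologues, and Mrpl14 is the protein to which the assembly factor Malsu1 binds.

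Large subunit proteins with a known further task were also higher in BAT. Mrpl12 forms the flexible stalk that recruits translation factors, and the human protein has also been described as a partner of the mitochondrial RNA polymerase. It had 0.56, 1.33, 1.27 and 1.13 in BAT, against -0.23, -0.05, -1.10 and 0 in sWAT, and the log2 difference was 1.42 ± 0.25 (limma, adjusted p = 0.0044). BAT replicate 1 and sWAT replicate 3, each with an array of low 5' signal, were the lowest of their tissues, and without these arrays the difference was 1.48 ± 0.15. Mrpl12 was not called with the paired test of the methods (adjusted p = 0.082) or on second arrays alone (a difference of 0.86). Mrpl44, whose fold resembles ribonuclease III, had 0.46, 0.68, 0.75 and 0.51 in BAT, against -0.42, -0.35, -0.52 and -0.44 in sWAT (1.03 ± 0.12, limma, adjusted p = 8.0e-04). Mrpl45, which in human cells anchors the ribosome to the inner membrane, had 0.10, 0.79, 0.80 and 0.90 in BAT, against -0.04, -0.12, -1.05 and -0.0011 in sWAT, a difference of 0.95 ± 0.25 (limma, adjusted p = 0.024). The same replicates were lowest here. The call of Mrpl45 ended without replicate 2 or without replicate 4 (0.97 and 0.97), and on second arrays alone its difference was 0.34 and not called. The call also ended with the paired test of the methods (adjusted p = 0.15), with random replicate blocks over all arrays (0.085) and with arrays centred on their medians (0.057).

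At the other end of the large subunit, 4 genes differed little and were not called. Mrpl52 had 0.07, 0.05, -0.10 and 0.18 in BAT, against -0.11, -0.21, -0.05 and -0.05 in sWAT (0.16 ± 0.12, limma, adjusted p = 0.31). The tissues overlapped, and its probe sets were unlike, with 0.84 for one that was called higher and -0.20 to 0.01 for the others. Mrpl24 and Mrpl33, homologues of bacterial proteins, stood at 0.24 ± 0.18 and 0.26 ± 0.15, and the mitochondria-specific Mrpl54 at 0.35 ± 0.12 (limma, adjusted p = 0.051). Without the arrays of low 5' signal, Mrpl54 (0.39 ± 0.10, limma, adjusted p = 0.019) and Mrpl24 (0.27 ± 0.09, limma, adjusted p = 0.047) were called.

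**Figure D3:**
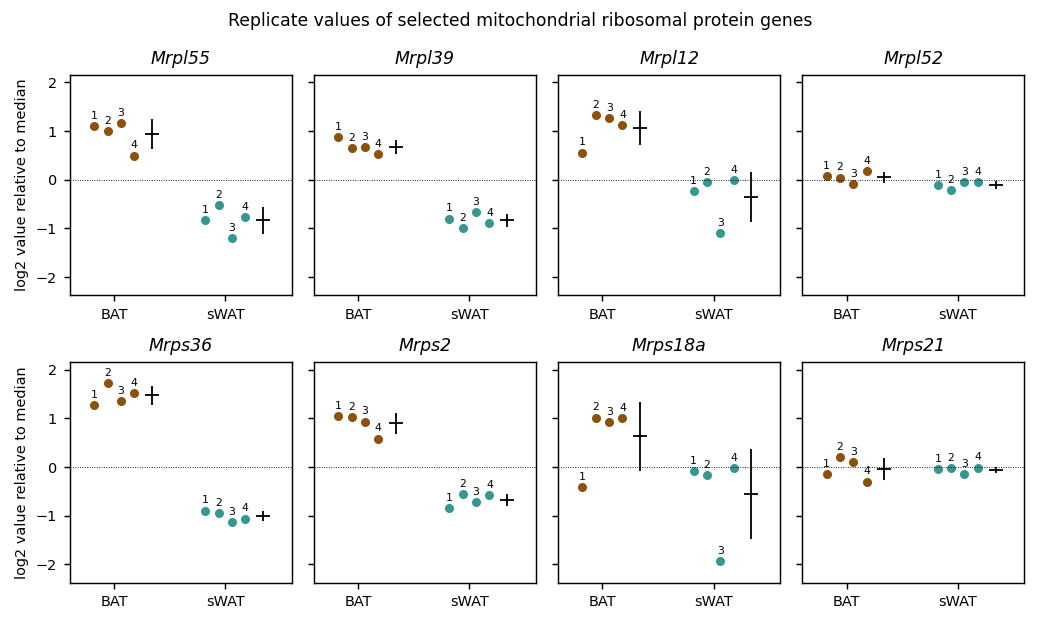
Log2 values, set against the median of the 16 arrays, for 4 Mrpl genes (top) and 4 Mrps genes (bottom), with BAT left and sWAT right in each panel. Points are replicates numbered 1 to 4 (mean of 2 arrays), and the mark beside them gives their mean and SD. BAT and sWAT are apart for Mrpl55, Mrpl39, Mrpl12, Mrps36 and Mrps2, overlap for Mrpl52 and Mrps21, and Mrps18a has 1 low replicate in each tissue.

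The highest difference of all 76 genes was that of Mrps36, whose protein is now known as the part of the 2-oxoglutarate dehydrogenase complex, an enzyme of the citric acid cycle, that holds its E3 subunit. It had 1.28, 1.72, 1.36 and 1.53 in BAT, against -0.90, -0.95, -1.13 and -1.06 in sWAT. The difference of 2.48 ± 0.13 amounts to 5.59-fold (limma, adjusted p = 4.9e-05), with every replicate far from those of the other tissue. Mrps2, a homologue of a bacterial protein of the small subunit, had 1.05, 1.03, 0.93 and 0.59 in BAT, against -0.84, -0.56, -0.72 and -0.58 in sWAT, a difference of 1.58 ± 0.15 (limma, adjusted p = 3.1e-04). Mrps35, found only in mitochondria, and Mrps28 stood at 1.56 ± 0.15 and 1.52 ± 0.13, without overlap between the tissues. Mrps27, a protein with pentatricopeptide repeats, had 0.62, 1.61, 1.27 and 0.47 in BAT, against -0.23, -0.10, -0.64 and -0.49 in sWAT (1.36 ± 0.21). Mrps16, a homologue of a bacterial protein, had 0.67, 1.32, 1.35 and 0.99 in BAT, against -0.22, -0.19, -0.43 and -0.13 in sWAT (1.32 ± 0.17). BAT replicates 2 and 3 were the highest for Mrps27 and Mrps16, and Mrps27 was not called with the paired test of the methods (adjusted p = 0.061).

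The other Mrps genes named for their roles lay below these in the order. Mrps12, the homologue of the bacterial protein at the decoding centre, had 0.28, 0.46, 0.77 and 0.36 in BAT, against -0.10, -0.08, -0.69 and -0.24 in sWAT (0.75 ± 0.19, limma, adjusted p = 0.021). Mrps5 differed by 0.67 ± 0.13, with 0.30 to 0.51 in BAT, against -0.42 to -0.11 in sWAT. Neither gene overlapped between the tissues. On second arrays alone neither was called, with 0.29 for Mrps12 and 0.43 for Mrps5. These arrays include the BAT array of low 5' signal but not that of sWAT. On this BAT array the genes had -0.42 and -0.14, against 0.11 to 0.99 and 0.30 to 0.79 on the other BAT arrays. Neither was called after scaling to Gapdh and Actb (adjusted p = 0.062 and 0.10), and Mrps12 also lost its call with the paired test of the methods (0.13), random replicate blocks (0.065) and centring on array medians (0.051). The mammalian ribosome has 3 homologues of the bacterial protein S18, and they can be set side by side. Mrps18b had 0.73, 0.87, 1.003 and 0.87 in BAT, against -0.34, -0.18, -0.75 and -0.21 in sWAT (1.23 ± 0.16). Mrps18c had 0.24 to 0.32 in BAT, against -0.52 to -0.39 in sWAT (0.72 ± 0.11). Mrps18a had -0.42, 1.02, 0.92 and 1.01 in BAT, against -0.08, -0.16, -1.94 and -0.02 in sWAT, and its difference of 1.18 ± 0.44 was not called (limma, adjusted p = 0.074). Only Mrps18a overlapped between the tissues, and whether the 3 differ from one another was not tested. Mrps30, like Mrps18a a protein of the large subunit, differed by 0.75 ± 0.12, with 0.23 to 0.40 in BAT, against -0.54 to -0.29 in sWAT. Mrps18c and Mrps30 lost their calls after scaling to Gapdh and Actb (adjusted p = 0.076 and 0.063).

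The low replicates of Mrps18a came from single arrays. It had 1.43 on the first array of BAT replicate 1 and -2.27 on the second, and the other BAT arrays ran from 0.57 to 1.46. In sWAT replicate 3 it had -3.65 on the first array, against -0.23 to 0.04 on the other sWAT arrays. Both low values were on the arrays of low 5' signal. Without these, Mrps18a was called higher in BAT (1.22 ± 0.12, limma, adjusted p = 2.4e-04), and so were Mrps7 (0.99 ± 0.15), Mrpl40 (0.76 ± 0.13), Mrpl19 (0.64 ± 0.12), Mrps11 (0.51 ± 0.15) and Mrps15 (0.38 ± 0.10). In 36 of the 76 genes both of these arrays lay below all other arrays of their tissue. This was not counted over all genes, so whether it is particular to the 76 cannot be told. Mrpl33, Mrpl52, Mrps6, Mrps14 and Mrps21 were called in neither fit.

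The lowest difference was that of Mrps21, a homologue of a bacterial protein of the small subunit, with -0.14, 0.20, 0.11 and -0.30 in BAT, against -0.04, -0.02, -0.14 and -0.01 in sWAT (0.02 ± 0.14, limma, adjusted p = 0.91). Its probe sets were called in opposite directions. One had 0.40 to 0.59 in BAT, against -0.44 to -0.25 in sWAT, a difference of 0.79 ± 0.13, and the other -1.09 to -0.19 in BAT, against 0.16 to 0.23 in sWAT, a difference of -0.75 ± 0.19. With arrays centred on their medians the difference of the gene was -0.04. Mrps14, Mrps15 and Mrps26 stood at 0.26 ± 0.14, 0.35 ± 0.12 and 0.38 ± 0.11, and of these Mrps26 was called (limma, adjusted p = 0.032). Its call ended when any single replicate was left out (adjusted p = 0.063 to 0.14), on second arrays alone (0.092), with arrays centred on their medians (0.051) and after scaling to Gapdh and Actb (0.44).

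Probe sets of a gene often differed in size. At this level 102 of the 156 probe sets were called higher in BAT, against 15.1% of all probe sets, and 2 were called lower, against 17.3%. By subunit, 70 of 104 Mrpl and 32 of 52 Mrps probe sets were called higher. Of the 42 genes with several probe sets, 14 had probe sets over 1 log2 unit apart and 12 had probe sets of both signs. The other 34 genes had 1 probe set, among them Mrpl55 and Mrps36, the highest of the Mrpl and Mrps genes. Single probe sets of Mrpl34 (2.23), Mrpl42 (2.01) and Mrpl15 (1.95) lay above that of Mrpl55 (1.77). The order by gene means is thus not that of single probe sets. Mrpl15, with 8 probe sets, had 5 from 1.68 to 1.95 and 3 from 0.19 to 0.53, and the gene value was 1.25 ± 0.15. Mrps10 had 1.58 ± 0.15 on one probe set and -0.15 ± 0.18 on the other. Mrps9, like Mrps21, had calls in opposite directions, at 0.89 ± 0.16 and -0.53 ± 0.16, and a gene value of 0.38 ± 0.11 over 4 probe sets. Mrps9 was called as a gene (limma, adjusted p = 0.032) but not when any single replicate was left out (0.061 to 0.16), and with plain _at probe sets only its value was 0.10. It also lost its call on second arrays alone, with the median over probe sets and under both of the scalings that ended the call of Mrps26. The files used do not say which transcript a probe set reports, so such a gene value averages unlike values.

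**Figure D4:**
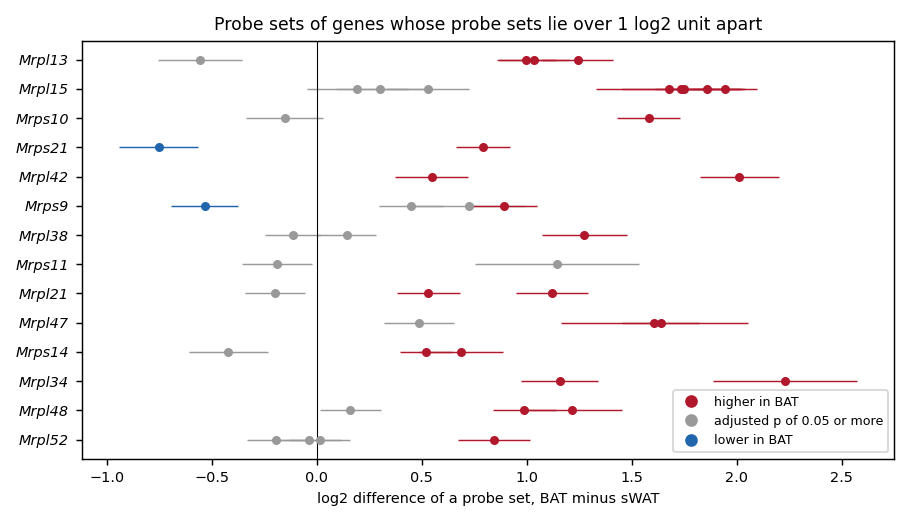
Log2 difference, BAT minus sWAT, of each probe set (point, with its standard error) for the 14 genes whose probe sets lie over 1 log2 unit apart. Colours give the call over all 45101 probe sets. Mrps21 and Mrps9 each have a probe set called lower in BAT, at -0.75 and -0.53, beside one called higher.

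Proteins of bacterial descent and mitochondria-specific proteins were counted apart, by their place in the structure. In the large subunit 26 of 29 genes of bacterial descent were called higher (median 1.03), and 16 of 20 mitochondria-specific genes (median 0.77). In the small subunit the counts were 10 of 16 (median 0.72) and 10 of 10 (median 1.20). Of all genes 21.0% were called higher. The 6 genes not called in the small subunit were Mrps6, Mrps7, Mrps11, Mrps14, Mrps15 and Mrps21. Without the arrays of low 5' signal Mrps7, Mrps11 and Mrps15 were called. The values of Mrps11, Mrps14, Mrps15 and Mrps21 average probe sets of both signs. Mrps18a and Mrps18b, although homologues of S18, were counted as mitochondria-specific, as in the naming of the structure, and only Mrps18c as of bacterial descent. These medians are descriptions without a test.

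Other genes of mitochondrial translation were counted in the same fit, in which 21.0% of all genes were called higher and 17.5% lower. Subunits of the mitochondrial ribosome with other symbols had 3 of 4 genes called higher (median 0.73). Ptcd3 and Chchd1, of the small subunit, stood at 1.02 ± 0.15 and 0.96 ± 0.12, Dap3, which binds GTP, at 0.50 ± 0.15, and Gadd45gip1, of the large subunit, was not called at 0.32 ± 0.17. Of the translation factors 8 of 12 were called higher and 0 lower (median 0.54). Gfm1, the elongation factor that moves the ribosome along the mRNA, had 1.69 ± 0.17 and Mtif2, an initiation factor, 0.95 ± 0.14. Mtfmt, which formylates the initiator methionine, had 0.03 ± 0.17 and the release factor Mtrf1l 0.11 ± 0.24, and neither was called.

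The enzymes that charge mitochondrial tRNAs had 13 of 19 genes called higher and 0 lower (median 0.61). The synthetases for phenylalanine, Fars2, and tyrosine, Yars2, led with 1.58 ± 0.23 and 1.49 ± 0.15. Those for glutamate, Ears2, and methionine, Mars2, had 0.02 ± 0.11 and 0.06 ± 0.12 and were not called. Factors of ribosome assembly and RNA handling had 15 of 25 genes higher and 1 lower (median 0.66). Lrpprc, which stabilises mitochondrial mRNAs, stood at 1.29 ± 0.15 and the GTPase Mtg1 at 1.19 ± 0.17. Dhx30, an RNA helicase, was lower in BAT (-0.47 ± 0.12, limma, adjusted p = 0.019), and Rpusd4, a pseudouridine synthase, had -0.28 ± 0.16 and was not called. Of the genes for the expression and copying of mitochondrial DNA, 5 of 10 were higher and 2 lower (median 0.43). Of all genes 21.0% were called higher and 17.5% lower, so the share lower in this list (20%) is near that of all genes. Tfb2m, needed to start transcription, and Polrmt, the RNA polymerase, were higher at 1.36 ± 0.11 and 1.10 ± 0.16. Mterf1a, of the transcription termination factor family, and Polg, the DNA polymerase, were lower at -0.87 ± 0.15 and -0.43 ± 0.13.

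The medians of the mitochondrial ribosomal proteins lay between those of complex I of the respiratory chain and of the cytosolic ribosome. Of 35 genes with symbols of complex I subunits, which include Ndufa4 and Ndufa4l2 although they are not part of it, 32 were called higher and 0 lower (median 1.59). Ndufv1, a core subunit, had the highest of these differences at 2.43 ± 0.27. Of 45 cytosolic ribosomal protein genes, 4 were called higher and 27 lower in BAT (median -0.64), from Rpl12 at -1.77 ± 0.19 to Rpl3l, the form of striated muscle, at 1.95 ± 0.28. These genes averaged -0.71, -0.39, -0.35 and -0.04 in BAT, against 0.19, 0.16, 0.08 and 0.21 in sWAT. Over all genes 21.0% were called higher and 17.5% lower. The families were not tested against each other.

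**Figure D5:**
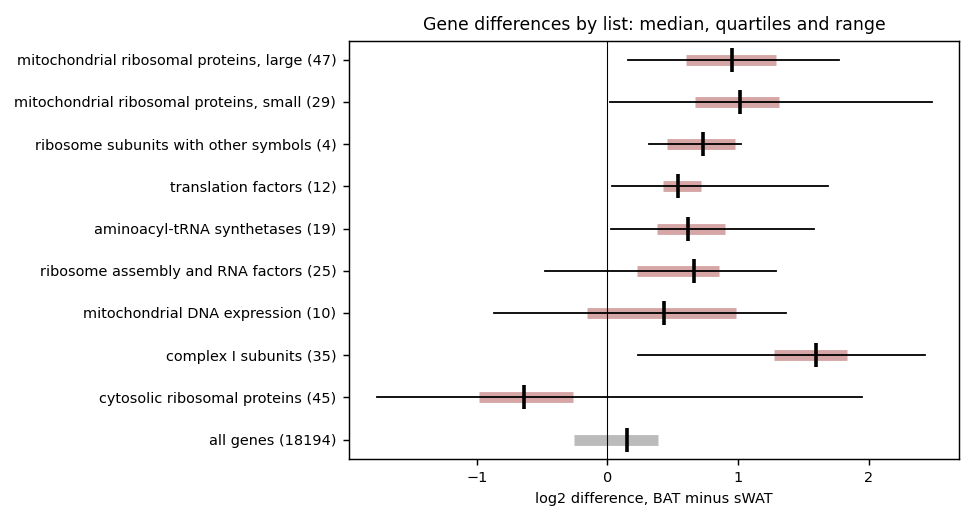
Log2 differences, BAT minus sWAT, of the genes in each list, with the number of genes measured in brackets. The tick is the median, the bar spans the quartiles and the thin line the range (for all genes only median and quartiles are drawn). The Mrpl and Mrps lists have medians of 0.95 and 1.02, complex I 1.59 and cytosolic ribosomal proteins -0.64, against 0.15 for all genes.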

How the data were processed

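RNA of BAT and sWAT was hybridized to 16 Affymetrix mouse genome arrays. In GeneSpring the authors applied RMA and quantile normalization, with the median of all samples as baseline, and the deposited values are log2 values with a median of 0 per probe set. Background correction and filters on dim probes could not be varied, and precision is limited by how many arrays there are. The 2 arrays of a tissue and replicate number were averaged. By the platform annotation 34958 probe sets name 1 gene, 932 several and 9211 none. BAT minus sWAT was fitted with limma 3.58.1 (R 4.3.3), blocking on replicate number, for 45101 probe sets and for 18194 genes (mean of single-symbol probe sets), and the fit was tested on simulated data. Members and lists were chosen with earlier results of these data known, so no list was tested. Genes named are, per subunit, the 6 with the highest and 4 with the lowest difference, genes with probe sets called in opposite directions, and 10 genes with known roles, and in other lists the 2 highest and 2 lowest. Other genes given with values were named after these were seen. Alternatives were no block, first or second arrays alone, all arrays with random replicate blocks, the paired t-test of the methods, robust variance moderation, other scalings, leaving out the arrays of low 5' signal or each replicate, other gene values and subunits by structure. Figures were drawn with matplotlib 3.10.9.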

Additional observations from a re-analysis of the deposited data

Results flagged for a closer look

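Of the 96 groups of 4 replicates examined, 8 had 1 replicate far from the others, and chance gives about 1 in 20. Mrps18a stood at -0.42 in BAT replicate 1 (the nearest of the others at 0.921) and at -1.94 in sWAT replicate 3 (the nearest of the others at -0.162). Mrpl45 stood at 0.0992 in BAT replicate 1 (the nearest of the others at 0.791) and at -1.05 in sWAT replicate 3 (the nearest of the others at -0.122). Mrpl46 was at -1.12 in sWAT replicate 3 (the nearest of the others at -0.457), and the mean of the Mrpl genes at -0.57 in sWAT replicate 3 (the nearest of the others at -0.332). BAT replicate 1 and sWAT replicate 3 each hold an array of low 5' signal. Mrpl46 was also at 0.465 in BAT replicate 4 (the nearest of the others at 1.04), and the mean of the brown adipocyte markers at 1.35 in BAT replicate 4 (the nearest of the others at 2.97).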

How the results depend on the processing

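Of the 76 genes 63 were called higher in BAT, and 0 were called lower under any alternative. The count was 41 with the paired t-test of the methods, which called 10.1% of all genes higher. With plain _at probe sets only it was 41 of 62, against 19.6% of all genes. For the Mrpl genes the paired t-test gave 23. Scaling to the 3' probe sets of Gapdh and Actb gave 27, and called 10.4% of all genes higher. Plain _at probe sets, which leave 62 of the 76 genes, gave 13 Mrps genes called higher and a median of 0.74 over the Mrps genes left. The paired t-test called 43 probe sets higher. Shares of all probe sets were not counted for the alternatives. This count and those of probe sets called lower thus have none beside them and cannot be set against the main fit. Called lower were 1 probe set on first arrays, 1 on second arrays, and 0 with the paired t-test or the scaling to Gapdh and Actb. Leaving out each replicate gave 49 to 61 genes higher (29 to 39 Mrpl, 20 to 22 Mrps), against 12.9% to 20.3% of all genes. Probe sets called lower were then 0 to 2, with 1 without replicate 1 and 0 without replicate 4. The cause of these changes was not tested.

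Both tissues carry the replicate numbers 1 to 4 in the labels. Deviations from the tissue means correlated, across probe sets, at -0.23, 0.06, -0.35 and 0.23 between samples of the same number. With sWAT samples of other numbers, the highest values for BAT replicates 1 to 4 were 0.52, 0.03, 0.23 and 0.06. The same number thus gave the highest value for BAT replicates 2 and 4 but not for 1 and 3, so these correlations alone do not settle the pairing. For replicates 1 to 3 the sex-linked genes given above differed between BAT and sWAT of the same number, which goes against tissues of 1 mouse. The block on replicate number and the paired t-test use this pairing all the same. Without the replicate block 66 genes were called higher (43 Mrpl, 23 Mrps), the 63 among them. The share of all genes called higher was 28.0% in that fit, against 21.0% with the block.

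Differences of named genes below 0 were -0.0295 for Mrpl24 on second arrays, -0.116 for Mrpl52 with plain _at probe sets, and -0.0407 for Mrps21 with arrays centred on their medians. On second arrays Mrpl19 and Mrps6 were below 0 too, 3 of the 76 genes in all. The second arrays include the BAT array of low 5' signal but not that of sWAT. Leaving out each replicate gave -0.0571 to 0.122 for Mrps21. Over the named genes and alternatives, 416 values kept direction and call, 38 lost and 16 gained a call, and 5 changed sign. Centring the arrays on their medians moved the median of all genes from 0.15 to 0.09.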

Other observations

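The 3 catalytic subunits of the 2-oxoglutarate dehydrogenase complex, looked at after the value of Mrps36 was seen, were also called higher in BAT by limma. Ogdh, the E1 subunit, stood at 1.79 ± 0.26, Dlst, the E2 subunit, at 0.999 ± 0.20 and Dld, the E3 subunit shared with other dehydrogenases, at 1.32 ± 0.12, beside 2.48 ± 0.13 for Mrps36 (log2 difference and standard error, n = 4 replicates per tissue).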
